A study of Mus musculus with 2 samples.

Results

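The nuclear genes of oxidative phosphorylation are described here in immune cells of mouse liver tumors, by respiratory complex, cell type and treatment, beside the subunit genes of the mitochondrial genome. Members were chosen by symbol (Nduf followed by a, b, c, s or v and a number, Uqcr, Cox4 to Cox8, and Atp5) and by a minimum of 100 unique molecular identifiers (UMIs) over both libraries. Of 32285 genes, 81 symbols matched and 77 passed. Of these, 36 belong to complex I, 8 to complex III, 14 to complex IV and 17 to complex V, and 2 are given apart: Ndufa4, whose product is found in complex IV despite its name, and Cox7a2l, which helps complexes III and IV to associate. The symbols left out were Cox7b2 and Cox8c at 0 UMIs, Cox8b at 1 and Ndufa4l2 at 9. The members just inside the limit were Cox4i2 at 120 UMIs, Cox7a1 at 156 and Cox6b2 at 513, followed by Ndufs1 at 5694. Every member is annotated as protein coding except Ndufb1-ps, a complex I symbol that GENCODE lists as a long noncoding RNA.

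Oxidative phosphorylation moves electrons from NADH and succinate to oxygen through complexes I to IV of the inner mitochondrial membrane, and complex V (ATP synthase) uses the resulting proton gradient to make ATP. Complexes I, III, IV and V are built from proteins of both genomes: the mitochondrial genome encodes a small core, and nuclear genes encode the remaining subunits, which are imported. Activated lymphocytes and dendritic cells are known to respire, whereas neutrophils hold few mitochondria and rely largely on glycolysis.

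The tumors arose in the liver of male C57BL/6J mice (wild type, 6 to 8 weeks old) that had received, under pressure through the tail vein, plasmids for human MYC, a guide that disrupts Trp53 and the sleeping beauty transposase. The sorted immune cells were of the host. All mice received lenvatinib at 30 mg/kg from day 12 after injection for 25 days, the time allowed for resistance, and were then divided. One library holds live CD45+ cells of tumors kept on lenvatinib at 30 mg/kg, and the other those of tumors given lenvatinib at 30 mg/kg with palbociclib at 100 mg/kg (combo), a CDK4/6 inhibitor. Both were made with droplet-based 3′ v3 scRNA sequencing, and the number of mice behind each library is not given in the sources used here.

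The lenvatinib library held 14509 barcodes and 98107503 UMIs and the combo library 11989 barcodes and 93583402 UMIs, with 49 barcodes in both. Limits of 6000 genes and 25% mitochondrial (mt-) UMIs left 14201 and 11613 cells, with medians of 5541 and 5754 UMIs. A cell was assigned to a class when it held UMIs of at least 2 markers of that class and fewer than 2 of every other. This placed 70.8% of lenvatinib cells and 73.1% of combo cells in 7 classes, given lenvatinib first: T cells (5325 and 4173), NK cells (2818 and 1165), B cells (537 and 565), monocytes/macrophages (257 and 557), neutrophils (797 and 1759), conventional dendritic cells (cDC, 165 and 92) and plasmacytoid dendritic cells (pDC, 162 and 180). Cell names below stand for these gates. Plasma cells (23 and 17) and basophils or mast cells (38 and 19) fell under 50 cells and were left out.

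Marker levels are given for the sort and the gates. Levels are UMIs of a gene scaled to 1000000 UMIs of the class in that library (CPM). Ptprc, which encodes CD45, stood at 1767 CPM over all lenvatinib cells and 1048 CPM over all combo cells, and between 552 and 2368 CPM in the 7 classes. Hepatocyte or tumor genes (Alb, Apoa1, Ttr), which no gate used, summed to 19.1 and 14.1 CPM over all cells. The markers of a class chose its cells, so their levels there describe the gate and do not check it. The pDC markers summed to 4475 CPM in lenvatinib pDC and 3897 CPM in combo pDC, led by Siglech in both. In monocytes/macrophages the sum was 3351 CPM in lenvatinib, led by the macrophage gene C1qa, and 1812 CPM in combo, led by F13a1, a gene of monocytes.

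There is 1 library per condition, so no test between conditions was possible and library and treatment cannot be told apart. Sums of UMIs are given with exact Poisson 95% intervals and shares of cells with exact Clopper-Pearson 95% intervals, and the range in brackets after a ratio divides each end of the combo interval by the opposite end of the lenvatinib interval. All of these cover counting error only. Ratios are combo over lenvatinib unless said otherwise. As reads come from 3′ ends, levels of different genes are not ranked against each other.

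Over the 77 genes together, cDC held the highest level and neutrophils the lowest. Summed nuclear levels in the lenvatinib library were 20497 CPM in cDC (95% interval 20302 to 20693), 18971 in pDC (18710 to 19235), 18136 in NK cells (18078 to 18193), 17740 in monocytes/macrophages (17523 to 17959), 16987 in T cells (16944 to 17030), 13216 in B cells (13059 to 13374) and 9418 in neutrophils (9306 to 9531). In the combo library the order of the sums was the same, with 22130 CPM in cDC, 20968 in pDC, 18440 in NK cells, 18039 in monocytes/macrophages, 16246 in T cells, 12513 in B cells and 8591 in neutrophils. Neighbouring classes had intervals that did not overlap in either library. By the median share of single cells, combo monocytes/macrophages stood lower in the order, at 1.18% of UMIs against 1.54% in T cells and 1.22% in B cells. Spread between mice could not be measured. The T cell level corresponds to 1.70% of UMIs in lenvatinib and 1.62% in combo.

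**Figure D1:**
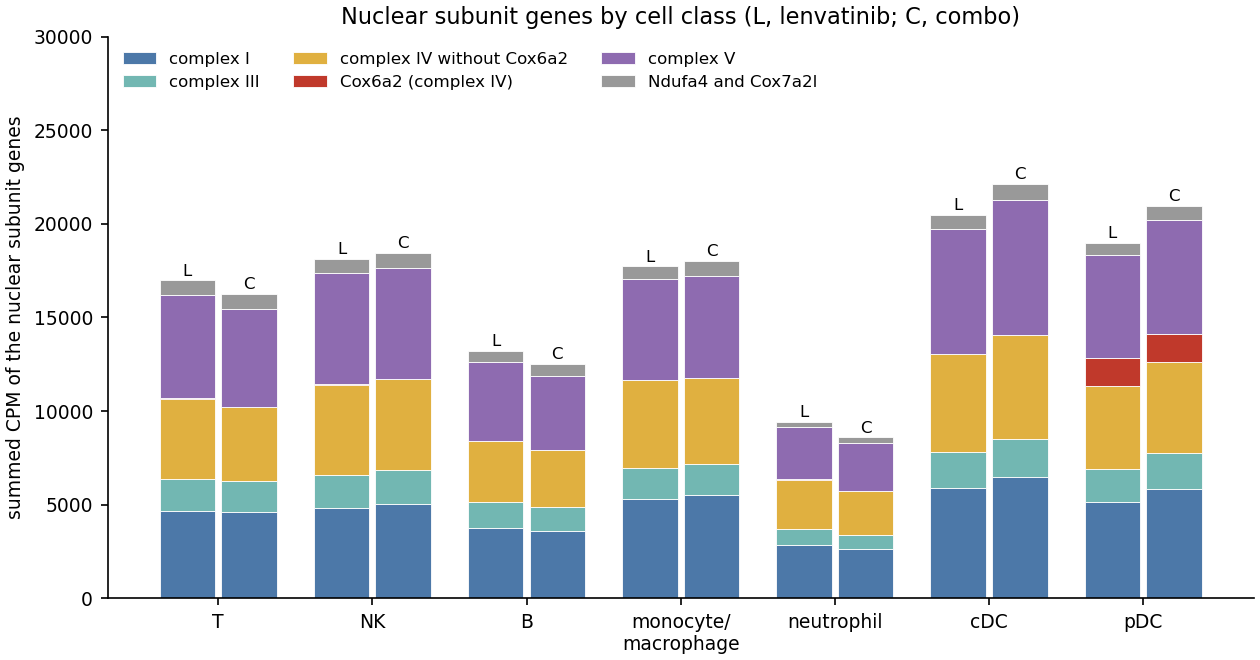
Summed level of the nuclear subunit genes (y axis, CPM) in 7 marker-gated cell classes, with 1 bar per library (L, lenvatinib; C, combo) stacked by complex. The bars reach 20497 and 22130 CPM in cDC and 9418 and 8591 CPM in neutrophils, and Cox6a2 forms a visible segment in pDC.

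Neutrophils stood at 0.554 times the T cell level in lenvatinib and 0.529 times in combo. For 61 of the 77 genes they were the class with the lowest level in lenvatinib, and for 61 in combo. B cells were lowest for 12 genes in lenvatinib and 16 in combo. Counts of the lowest class over all genes are not given here, so these counts are not set against the transcriptome. Of the members with at least 100 UMIs, 64 of 73 in lenvatinib and 66 of 74 in combo stood in neutrophils at or under 0.8 times the T cell level, and in 0 the T cell level was at or under 0.8 times that of neutrophils. Over all genes passing the same minimum, 67.0% in lenvatinib and 70.8% in combo were lower by that measure, and 19.7% and 18.4% were higher. The median gene ratio was 0.540 for members and 0.540 for all genes in lenvatinib, and 0.475 and 0.449 in combo, so the members' centre was close to that of the whole transcriptome.

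The members differed widely among themselves in neutrophils. Ndufa5, an accessory subunit of the peripheral arm of complex I, stood at 24.2 CPM in lenvatinib neutrophils against 99.8 CPM in T cells, and at 14.6 against 101 CPM in combo. Atp5g1, Atp5g2 and Atp5g3, which encode the same ring protein of the ATP synthase rotor, were also among the lowest relative to T cells. Atp5g3 stood at 0.292 times the T cell level in lenvatinib and 0.268 times in combo. Atp5g1 stood at 69.7 and 38.3 CPM in neutrophils against 217 and 215 CPM in T cells. At the other end, Ndufb9, a complex I accessory subunit, was at 159 and 156 CPM in neutrophils and 156 and 156 CPM in T cells. Ndufb7 and Atp5l, accessory subunits of complexes I and V, reached 0.84 and 0.85 times the T cell level in lenvatinib and 0.94 and 0.91 times in combo.

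Neutrophil libraries carry a large load of a few transcripts that enter every CPM total. S100a8, S100a9, Retnlg and Lcn2 made up 16.6% of neutrophil UMIs in lenvatinib and 29.3% in combo, led by S100a8. With these 4 genes left out of the total, neutrophils stood at 0.665 and 0.746 times the T cell level. With only cells of 3000 to 10000 UMIs kept, the values were 0.524 and 0.464. Neutrophils stayed under T cells in both settings, while the order of the 2 libraries turned with the total used.

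Dendritic cells lay at the top for most members. cDC held the highest level of the 7 classes for 47 of 77 genes in lenvatinib and 53 in combo, followed by NK cells with 11 and monocytes/macrophages with 10 in lenvatinib, and by pDC with 13 in combo. The same count over all genes is not given here, so these counts do not show a trait particular to the members. Among core subunits, Atp5b, the catalytic β subunit of ATP synthase, stood at 465 CPM in lenvatinib cDC and 599 CPM in combo cDC, against 335 and 374 CPM in T cells. Cox5a, a nuclear subunit of complex IV, stood at 464 and 516 CPM in cDC against 318 and 318 CPM in T cells. cDC were also the deepest class, with median counts of 10772 and 18929.5 UMIs per cell against 5692 and 5163 in T cells.

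Mixtures of complexes were alike across classes. Complex I genes made up between 26.7% and 30.8% of nuclear subunit UMIs in every class and library. Complex III ranged from 8.46% in combo neutrophils to 10.7% in lenvatinib B cells. Complex V made up 32.7% in lenvatinib T cells and 29.8% in lenvatinib neutrophils. Complex IV stood at 31.2% and 30.4% in pDC, above the 24.4% to 28.2% of the remaining classes. Without Cox6a2, the pDC shares were 25.4% and 25.1%.

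Cox6a2 was abundant in 1 class only. It encodes the form of complex IV subunit VIa known from heart and skeletal muscle, while Cox6a1 encodes the form found in most tissues. Cox6a2 (ENSMUSG00000030785) lies on chromosome 7 of mm10 from 128205435 to 128206387 on the minus strand, and Cox6a1 (ENSMUSG00000041697) on chromosome 5 from 115345642 to 115348981, also on the minus strand. Both have 3 exons in the transcript used, with 294 coding bases in Cox6a2-201 and 339 in Cox6a1-201 (GENCODE vM21). Of 288 aligned coding bases, 183 were identical (63.5%). The last 150 coding bases are shown so that both forms can be compared, and capitals mark bases that are identical in the alignment. Where both bases are shown, these are 103 of 148 (69.6%). The stretch holds 2 gap bases, so the first letters of the lines are offset. The first capital of Cox6a2 has its partner before the Cox6a1 bases shown.
Cox6a2: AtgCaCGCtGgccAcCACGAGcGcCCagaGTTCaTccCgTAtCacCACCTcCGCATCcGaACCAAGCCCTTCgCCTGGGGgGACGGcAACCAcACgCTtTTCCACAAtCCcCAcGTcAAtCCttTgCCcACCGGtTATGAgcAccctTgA
Cox6a1: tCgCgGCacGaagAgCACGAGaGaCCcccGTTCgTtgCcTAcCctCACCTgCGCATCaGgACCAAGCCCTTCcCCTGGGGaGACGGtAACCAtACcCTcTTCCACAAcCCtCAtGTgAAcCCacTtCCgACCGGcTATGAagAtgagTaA

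In pDC, Cox6a2 stood at 1470 CPM in lenvatinib and 1501 CPM in combo, a ratio of 1.02 (0.935 to 1.11). In the 6 other classes it lay between 1.45 and 17.6 CPM. pDC of both libraries were thus far above every other class, and the 2 libraries were within counting error of each other. Cox6a1 did not follow this pattern: it stood at 198 and 188 CPM in pDC, beside 203 and 152 CPM in T cells and 268 and 232 CPM in cDC.

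By cell, 125 of 162 pDC in lenvatinib held a Cox6a2 UMI, or 77.2% (69.9% to 83.4%), and 170 of 180 in combo, or 94.4% (90.0% to 97.3%), at median counts of 7072 and 9744 UMIs. After each cell was thinned to 2000 UMIs, the shares were 70.5% (62.4% to 77.8%) and 86.0% (80.0% to 90.7%). T cells, taken as background from free RNA, held a Cox6a2 UMI in 1.67% and 1.80% of cells, or 0.577% and 0.812% after thinning. The thinned intervals of the 2 pDC libraries did not overlap although the summed levels did. NK cells stood at 4.19% and 3.69%, or 1.64% and 1.56% after thinning, and the thinned intervals of NK and T cells were apart in lenvatinib and overlapped in combo. The 238 UMIs in lenvatinib NK cells lay in 118 cells. In lenvatinib B cells, the level of 17.6 CPM rested on 36 UMIs in 6 cells, and the combo level of 1.90 CPM on 4 UMIs. In cDC, 3 of 165 cells (1.82%, 0.377% to 5.22%) and 5 of 92 cells (5.43%, 1.79% to 12.2%) held a UMI at full depth, with median counts above those of T cells, and 0 of 159 and 0 of 89 did after thinning. The full-depth intervals of cDC and T cells overlapped in both libraries. Among cells gated as pDC, endothelial genes summed to 253 and 220 CPM, led by Pecam1 in lenvatinib and Cdh5 in combo, and all 3 genes of that list were above 0.

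**Figure D2:**
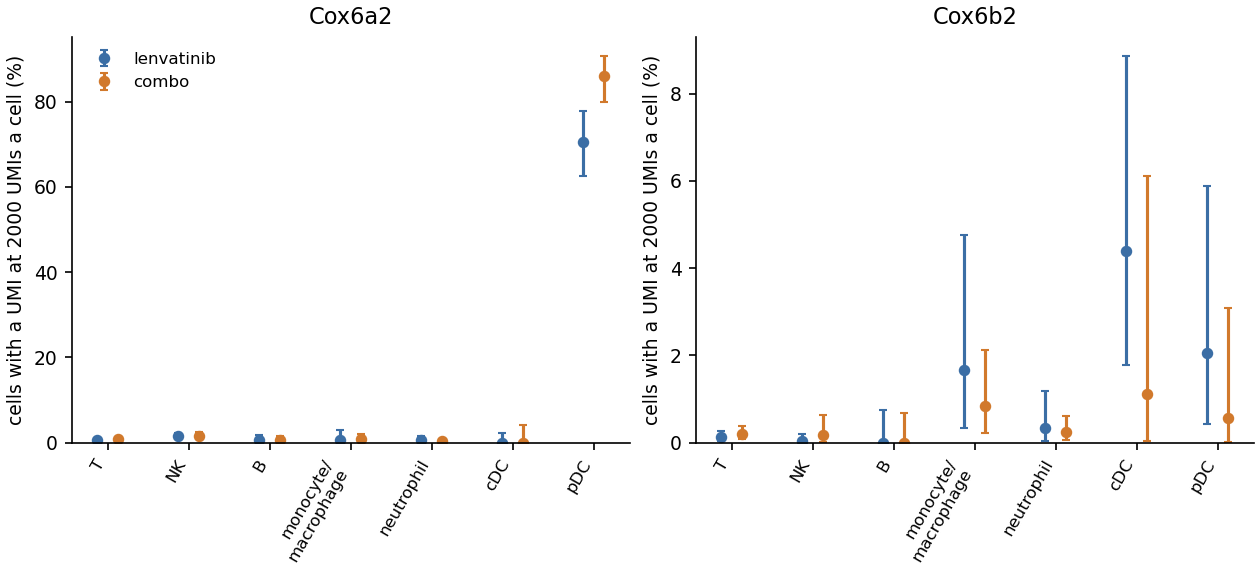
Share of cells with a UMI of Cox6a2 (left) and Cox6b2 (right) after each cell was thinned to 2000 UMIs (y axis, %), by class and library, with exact 95% intervals as bars. Cox6a2 reaches 70.5% and 86.0% in pDC and stays at or under 1.64% elsewhere, whereas Cox6b2 is at or under 4.40% in all classes, on a y axis of its own.

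The other tissue-restricted forms were scarce. Cox6b2, the testis form of complex IV subunit VIb, was found in 24 of 165 lenvatinib cDC, or 14.5% (9.55% to 20.9%), and in 7 of 92 combo cDC, or 7.61% (3.11% to 15.1%). After thinning these shares were 4.40% and 1.12%, and the intervals of the 2 libraries overlapped. Its ubiquitous counterpart Cox6b1 stood between 255 and 515 CPM in every class and library. Cox7a1, the muscle form of subunit VIIa, summed to 156 UMIs over both libraries, and its widely used counterpart Cox7a2 stood between 210 and 449 CPM. Cox4i2, the lung and hypoxia-linked form of subunit IV, summed to 15 UMIs over all lenvatinib cells and 105 over all combo cells, and was at or under 1.39 CPM in each of the 7 classes. Cox4i1, its common counterpart, stood at 574 and 529 CPM in T cells.

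Over all cells, the summed nuclear level was 17056 CPM in lenvatinib and 15640 CPM in combo, a ratio of 0.917 (0.914 to 0.920). The makeup of the 2 libraries differed at the same time. Of the UMIs of the 7 classes, neutrophils held 4.31% in lenvatinib and 23.2% in combo, NK cells 31.8% and 15.8%, and T cells 53.9% and 44.1%. Over these classes the ratio was 0.887 with each library's own makeup and 0.984 with the lenvatinib makeup applied to both. As the ratio over all cells moves with the makeup, the classes are taken singly below.

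Within classes, T cells stood at a ratio of 0.956 (0.951 to 0.962), B cells at 0.947 (0.924 to 0.970) and neutrophils at 0.912 (0.896 to 0.929), all lower in combo. NK cells stood at 1.02 (1.01 to 1.02), cDC at 1.08 (1.06 to 1.10) and pDC at 1.11 (1.08 to 1.13), all higher in combo. Monocytes/macrophages stood at 1.02 (0.997 to 1.04), a range that included 1. Cycling T cells, with UMIs of at least 2 of 10 genes of mitosis, made up 15.7% of T cells in lenvatinib and 4.74% in combo, or 25.1% and 8.92% of T cell UMIs. The nuclear ratio was 1.06 (1.05 to 1.07) within cycling and 0.985 (0.979 to 0.991) within noncycling T cells, and 1.01 for all T cells with the lenvatinib makeup of both applied to both libraries. The 0.956 of T cells therefore moved with their makeup. By lineage, the ratio was 0.951 in CD8 T cells, 0.976 in CD4 conventional T cells and 1.08 (1.03 to 1.12) in Treg cells, of which combo held 50. Taken by cell, the median share of nuclear subunit UMIs was 1.59% and 1.54% in T cells, 1.73% and 1.74% in NK cells, 1.12% and 1.22% in B cells, 1.73% and 1.18% in monocytes/macrophages, 0.7996% and 0.753% in neutrophils, 1.98% and 2.18% in cDC and 1.94% and 2.11% in pDC. B cells and monocytes/macrophages thus stood on the other side of 1 by cell than by sum.

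The direction depended on the processing in 5 classes. NK cells and pDC stayed above 1 under every alternative run. With mitochondrial, ribosomal and hemoglobin genes left out of the total, T cells moved to 1.01 and B cells to 1.01. In B cells the mean of single cells gave 1.03. In monocytes/macrophages that mean gave 0.795, and 40.9% of combo cells against 21.4% of lenvatinib cells had over 10% mt- UMIs. Among cells of 3000 to 10000 UMIs, cDC gave 0.688, from 56 lenvatinib and 6 combo cells. Neutrophils moved to 1.08 when the 4 neutrophil genes were left out of the total.

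RNA of neutrophil and hemoglobin genes in the other classes moved with the library, and its source was not tested. The 4 neutrophil genes were all above 0 in every class and summed to 383 CPM in lenvatinib T cells and 2214 CPM in combo T cells, 235 and 1565 CPM in NK cells, 317 and 1894 CPM in B cells, 1058 and 3538 CPM in monocytes/macrophages, 201 and 1183 CPM in cDC, and 290 and 1424 CPM in pDC, with S100a8 the most abundant. In B cells, the 4 hemoglobin genes, all above 0, summed to 3138 CPM in lenvatinib, led by Hbb-bs, and 8.07 CPM in combo. Leaving the 4 neutrophil genes out of the total moved the nuclear ratio past counting error in neutrophils, as given above, and not in the 6 other classes. Leaving the hemoglobin genes out together with the mt- and ribosomal genes moved the ratio of B cells from 0.947 to 1.01. The part of this RNA in the levels of single genes was not tested.

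By complex, complex I had the highest ratio of the 4 complexes in each of the 7 classes with all depths pooled. Among cells of 3000 to 10000 UMIs this did not hold in 3 classes: complex IV stood at 1.06 and complex I at 1.02 in B cells, complex V at 0.891 and complex I at 0.832 in neutrophils, and complex III at 0.733 and complex I at 0.677 in cDC. In T cells, the ratio was 0.993 for complex I, 0.953 for complex III, 0.924 for complex IV and 0.943 for complex V. Complex III in T cells passed 1 in 1 of 3 alternatives, at 1.003. Complex I in T cells turned to 1.015 at 3000 to 10000 UMIs and to 1.045 without mt-, ribosomal and hemoglobin genes in the total, and under the same settings B cells turned from 0.956 to 1.02 and 1.02 in complex I and from 0.944 to 1.04 and 1.01 in complex V. With the lenvatinib makeup of cycling and noncycling T cells in both libraries, the T cell ratios were 1.04 for complex I, 0.983 for complex III, 0.985 for complex IV and 0.996 for complex V. In pDC the same order of complexes gave 1.13, 1.09, 1.08 and 1.11. Neutrophils were lowest in complex III, at 0.853, and stood at 0.934 in complex I. NK cells stood at 1.04 in complex I and 0.996 in complex V. Under the alternatives run, NK cells ranged across 1 in complex III (0.973 to 1.04), complex IV (0.9995 to 1.04) and complex V (0.985 to 1.03). Monocytes/macrophages in complex IV, at 0.973, ranged from 0.670 to 1.01.

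Single genes were set against all genes with at least 100 UMIs in the class. A gene was counted as lower when its combo level was at or under 0.8 times that of lenvatinib, and as higher when the lenvatinib level was at or under 0.8 times that of combo. In T cells 1 of 74 members was higher and 4 were lower, against 10.6% and 34.6% of all genes. The higher member was Cox6a2, at 2.55 and 3.33 CPM with a range of 0.849 to 2.01, a gene taken above as background in T cells. In NK cells 1 of 74 was higher and 2 were lower, against 11.2% and 31.2%. In B cells 1 of 73 was higher and 11 were lower, against 10.1% and 42.0%. With this total, fewer members than genes at large lay past the limit in each direction in these 3 classes. Within cycling T cells 9 of 73 members (12.3%) were higher and 1 lower, against 12.5% and 35.4% of all genes. The higher share there was thus close to that of all genes. Within noncycling T cells 2 of 74 were higher and 3 lower, against 10.7% and 33.2%. Without mt-, ribosomal and hemoglobin genes in the total, which scales every gene of a class by 1 factor, 3 were higher and 2 lower in T cells, 4 and 1 in NK cells, and 6 and 5 in B cells. The shares of all genes with that total were 14.3% higher and 27.8% lower in T cells, 13.8% and 27.4% in NK cells, and 14.8% and 34.0% in B cells. In monocytes/macrophages 10 of 73 were higher and 4 were lower, against 15.9% and 26.9%. In neutrophils 4 of 73 were higher and 19 were lower, against 8.44% and 61.3%. With the 4 neutrophil genes left out of the total, a change of scale for every gene alike, 13 were higher and 7 were lower, against 15.5% and 43.6% of all genes. In cDC 9 of 73 were higher and 0 were lower, against 15.3% and 29.3%. In pDC 19 of 73 were higher, or 26.0%, and 0 were lower, against 18.1% and 27.1%. The share of pDC members that were higher was not above that of all genes at 1.5-fold, with 4 of 73 against 5.48%, or with at least 400 UMIs, with 9 of 52 against 19.4%. It stayed above without mt-, ribosomal and hemoglobin genes in the total, with 26 of 73 against 21.4%. The median member ratio lay above the median of all genes in each class, at 0.968 against 0.889 in T cells, 1.05 against 0.915 in NK cells, 0.938 against 0.852 in B cells, 1.02 against 0.949 in monocytes/macrophages, 0.877 against 0.714 in neutrophils, 1.08 against 0.948 in cDC and 1.12 against 0.969 in pDC. The genes behind the median of all genes were not matched to the members by abundance. With at least 400 UMIs, the share of all genes that were lower was 17.3% in monocytes/macrophages, 19.6% in cDC and 18.4% in pDC, and 35.4% in T cells. The 3 to 4 members that did not pass the minimum of 100 UMIs in a class were mostly the restricted complex IV forms.

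**Figure D3:**
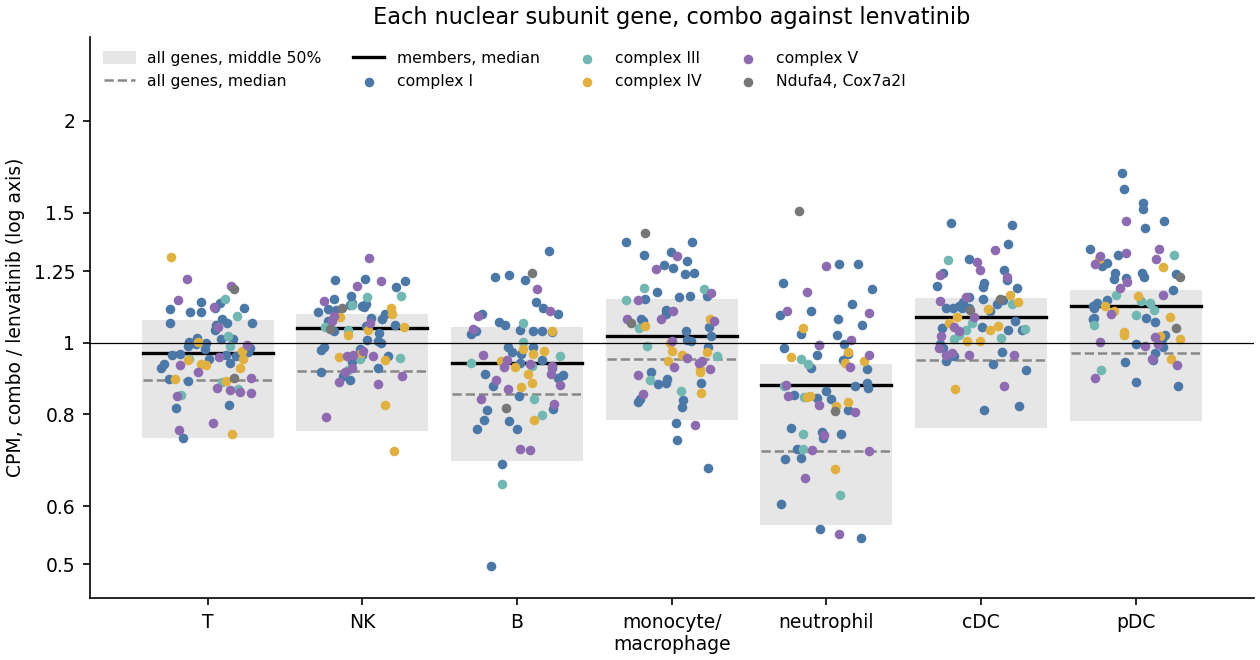
Ratio of combo to lenvatinib CPM (y axis, log scale) for each nuclear subunit gene with at least 100 UMIs in the class, colored by complex, with the members' median (black line) and the median and middle 50% of all genes (dashed line and gray box). The black line lies above the dashed line in all 7 classes, and the members' median is above 1 in NK cells, monocytes/macrophages, cDC and pDC.

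Genes of the catalytic arms of complex I are given by class, and differences between classes were not tested. Ndufs1 (chromosome 1, 63143596 to 63176833), which carries iron-sulfur clusters of the NADH-oxidizing arm, stood at 37.1 CPM in lenvatinib T cells and 27.6 CPM in combo T cells, a ratio of 0.743 (0.653 to 0.846). In B cells it stood at 40.1 and 19.9 CPM, a ratio of 0.497 (0.289 to 0.845) from 82 and 42 UMIs. In monocytes/macrophages it stood at 29.2 and 38.8 CPM. Ndufv1, the flavoprotein that takes electrons from NADH, stood at 42.5 and 45.8 CPM in T cells and 48.1 and 61.6 CPM in pDC. Its ranges in T cells (0.965 to 1.20) and pDC (0.802 to 2.07) included 1. Ndufs8, a core subunit that carries iron-sulfur clusters, stood at 67.9 and 115 CPM in pDC, a ratio of 1.70 (1.17 to 2.49). It stood at 102 and 128 CPM in cDC and at 51.4 and 54.7 CPM in T cells. Its ranges in cDC (0.956 to 1.64) and T cells (0.962 to 1.17) included 1.

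Accessory genes of complex I lay on both sides of 1. Ndufa8, a subunit with paired cysteines on the intermembrane side, was above 1 in all 7 classes, with 87.2 and 96.9 CPM in T cells, 98.0 and 134 CPM in monocytes/macrophages and 96.5 and 140 CPM in cDC. Its ranges in B cells (0.765 to 1.57) and NK cells (0.981 to 1.21) included 1. Ndufb3, an accessory subunit of the membrane arm, was below 1 in all 7, with 124 and 111 CPM in T cells and 85.4 and 46.3 CPM in neutrophils, a ratio of 0.542 (0.441 to 0.668). Its ranges in NK cells, cDC and pDC included 1. Ndufb2, another subunit of the membrane arm, stood at 57.5 and 92.9 CPM in pDC. Ndufa5 and Ndufb6 were the lowest members in monocytes/macrophages, at ratios of 0.675 (0.498 to 0.919) and 0.737 (0.556 to 0.979). Ndufs4, an accessory subunit of the peripheral arm, was the highest in B cells, at 54.3 and 72.2 CPM with a range of 0.936 to 1.89. Ndufc1, a small membrane-arm subunit, gave the lowest ratio in pDC at 0.875, with a range of 0.683 to 1.12.

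Core genes of complex III are given by class, and differences between classes were not tested. Uqcrfs1, the Rieske iron-sulfur protein, stood at 94.3 and 108 CPM in T cells, 157 and 163 CPM in cDC and 138 and 126 CPM in pDC. Uqcrc1 and Uqcrc2, the core proteins on the matrix side, stood at 73.2 and 74.6 CPM and at 98.8 and 97.8 CPM in T cells. Uqcrc2 stood at 52.2 and 37.5 CPM in neutrophils, a ratio of 0.718. Uqcrc1 reached 107 and 138 CPM in cDC and 70.7 and 92.9 CPM in pDC. The ranges of Uqcrc1 included 1 in T cells (0.937 to 1.11), cDC (0.995 to 1.68) and pDC (0.896 to 1.94). Those of Uqcrfs1 included 1 in cDC (0.827 to 1.31) and pDC (0.683 to 1.24) but not in T cells (1.07 to 1.23). Uqcr11, a small accessory subunit, stood at 124 and 79.8 CPM in B cells, a ratio of 0.642 (0.485 to 0.848), and at 218 and 241 CPM in pDC.

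Among complex IV genes over 100 CPM in T cells, Cox6a1 had the lowest ratio there. It stood at 203 and 152 CPM in T cells, a ratio of 0.751 (0.711 to 0.793), at 222 and 183 CPM in NK cells and at 162 and 109 CPM in neutrophils. Its ratio was below 1 in all 7 classes, including pDC at 198 and 188 CPM, the class with the highest level of Cox6a2. The ranges in cDC (0.721 to 1.04) and pDC (0.744 to 1.21) included 1. Cox5b, a zinc-binding subunit, stood at 292 and 273 CPM in T cells and 433 and 492 CPM in cDC. Cox7b stood at 354 and 344 CPM in T cells and 316 and 411 CPM in pDC. Cox8a, the common form of subunit VIII, stood at 744 and 705 CPM in T cells, 571 and 469 CPM in neutrophils and 706 and 818 CPM in cDC.

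The 3 genes of the ATP synthase ring protein did not move together. In T cells Atp5g1 stood at 217 and 215 CPM, Atp5g2 at 499 and 422 CPM, and Atp5g3 at 241 and 188 CPM, the last with a ratio of 0.778. In neutrophils Atp5g1 had the lowest of the 3 ratios, at 0.550 (0.438 to 0.692). In the catalytic head, Atp5a1 (α) stood at 308 and 267 CPM in T cells, whereas Atp5b (β) stood at 335 and 374 CPM and Atp5c1 (γ, the rotating stalk) at 202 and 247 CPM, a ratio of 1.22 (1.16 to 1.28). Atp5c1 and Atp5d, which encodes the δ subunit of the same stalk, were above 1 in all 7 classes. In B cells the ranges of Atp5c1 (0.850 to 1.28) and Atp5d (0.987 to 1.42) included 1. Atp5d stood at 263 and 314 CPM in T cells and 225 and 329 CPM in pDC. Atp5k, a membrane subunit of the synthase dimer, stood at 224 and 171 CPM in T cells, a ratio of 0.761, and was below 1 in all 7. Its ranges in cDC (0.803 to 1.15) and pDC (0.755 to 1.20) included 1. Within complex V, members thus stood in both directions in the same cells.

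The members given apart differed from each other. Cox7a2l (chromosome 17, 83501918 to 83517330) was above 1 in all 7 classes, with a range in cDC (0.944 to 1.30) that included 1. It stood at 338 and 400 CPM in T cells, a ratio of 1.18 (1.14 to 1.23), at 274 and 385 CPM in monocytes/macrophages and at 109 and 164 CPM in neutrophils, a ratio of 1.51 (1.29 to 1.76). It gave the highest member ratio in both of these last classes. Ndufa4 stood at 431 and 386 CPM in T cells, 468 and 488 CPM in NK cells and 456 and 522 CPM in cDC.

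Of the 72 members that passed in all 7 classes, 5 were above 1 in every class (Ndufa1, Ndufa8, Cox7a2l, Atp5c1 and Atp5d) and 6 were below 1 in every class (Ndufb3, Ndufc1, Cox6a1, Atp5k, Atp5l and Atp5md). These are 6.94% and 8.33% of members. For each gene named here the range included 1 in at least 1 class. Among 3264 genes passing in all 7 classes, 6.28% were above 1 and 28.2% below 1 throughout. The share above 1 was close to that of all genes, so nothing is read from it. All 7 classes of a condition came from the same library.

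Promoters of these genes are known to hold sites of NRF1 and of the ETS factor GABP, which act on many respiratory genes. Letters were searched on both strands from 250 bases before to 50 bases after the start, in RefSeq promoters of GRCm38.p6 that covered 62 members and 27025 genes. The NRF1 letters GCGCATGCG were in 8 of 62 members (12.9%) and in 1.95% of all genes, and the ETS letters CCGGAAG in 15 (24.2%) and 9.93%. The YY1 letters AAGATGGCG were in 7 (11.3%) and 1.64%, and the ERR letters TCAAGGTCA in 1, Atp5g3 (1.61%), and 0.466%. The end of the ETS letters can overlap the start of the YY1 letters, and the end of the YY1 letters the start of the NRF1 letters. Windows upstream of Cox6a1 and Atp5l are shown because both genes had ratios below 1 in every class. Some of their ranges included 1, those of both genes in cDC and pDC and that of Atp5l in B cells. The windows are each on the minus strand with the NRF1 letters in capitals. They lie at chr5:115349082-115349150 and chr9:44920945-44920992, with the letters 153 and 232 bases before the start, in Atp5l in reverse orientation. The window of Atp5k is not shown because it reaches into the gene as GENCODE places it.
Cox6a1: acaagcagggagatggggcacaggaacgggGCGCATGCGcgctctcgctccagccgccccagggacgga
Atp5l: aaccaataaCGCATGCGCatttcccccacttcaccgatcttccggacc
A match of letters is a description of the sequence and not a bound site.

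The 13 subunit genes of the mitochondrial genome stood further apart between the libraries than the nuclear genes. Their summed level was 51221 CPM in lenvatinib T cells and 41467 CPM in combo T cells, a ratio of 0.810 (0.807 to 0.812), beside 0.956 for the nuclear genes. NK cells stood at 0.902, B cells at 0.847, cDC at 0.906 and pDC at 0.781. Neutrophils stood at 28809 and 15536 CPM, a ratio of 0.539 (0.533 to 0.545). Monocytes/macrophages were higher in combo, at 53680 and 57197 CPM, a ratio of 1.07, which was 0.864 when cells over 10% mt- UMIs were left out. Among cells of 3000 to 10000 UMIs, the ratio was 1.52 in monocytes/macrophages and 2.02 in cDC, the latter from 6 combo cells. The median ratio of all genes was 0.889 in T cells, 0.915 in NK cells and 0.852 in B cells. It was 0.948 in cDC, 0.969 in pDC and 0.714 in neutrophils. In NK and B cells the mt- sums were thus close to the median of all genes, although a ratio of sums and a median of genes are unlike measures.

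In the mitochondrial genes, complexes I and III stood apart from IV and V. In T cells the mt- ratio was 0.694 for complex I, 0.735 for complex III (mt-Cytb), 0.842 for complex IV and 0.881 for complex V. In neutrophils it was 0.337, 0.351, 0.649 and 0.520. Monocytes/macrophages split across 1, at 0.769, 0.772, 1.20 and 1.08. Complexes I and III were the lower pair in all 7 classes with all depths pooled. Among cells of 3000 to 10000 UMIs, the mt- complex I ratio was 1.08 in monocytes/macrophages and 1.71 in cDC. The UMIs of complex I genes of the mitochondrial genome per UMI of its nuclear genes were 2.47 and 1.73 in T cells, 2.43 and 1.44 in pDC and 2.09 and 0.756 in neutrophils.

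**Figure D4:**
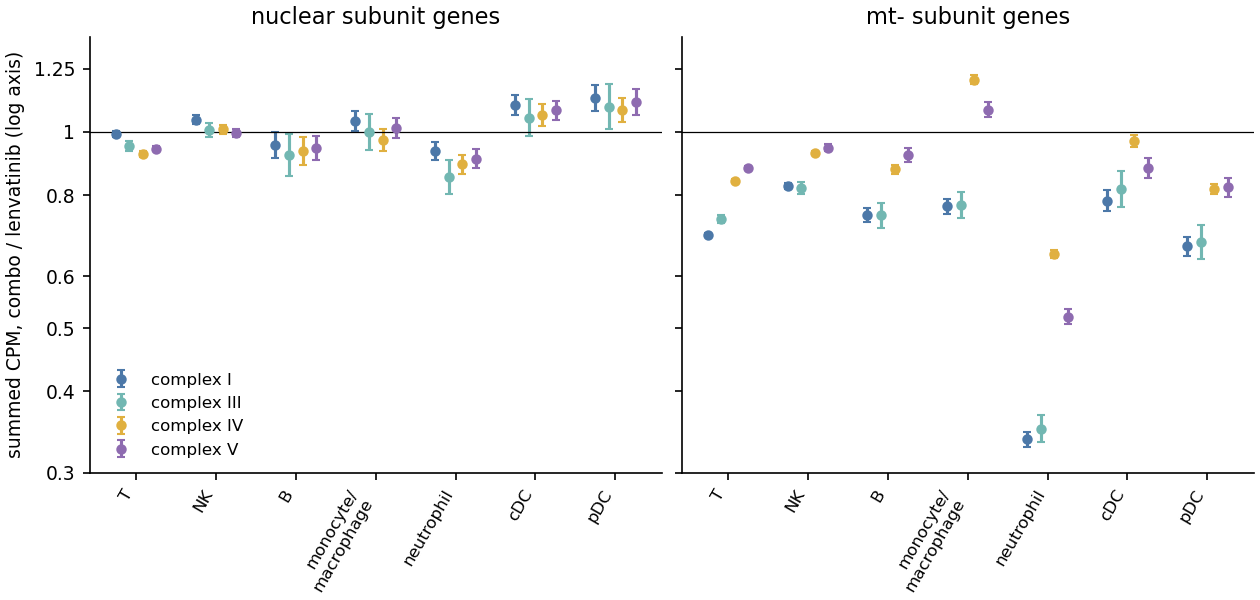
Ratio of combo to lenvatinib summed CPM (y axis, log scale) by complex and class for nuclear subunit genes (left) and subunit genes of the mitochondrial genome (right), with bars for the range from both Poisson intervals. Nuclear points lie between 0.853 and 1.13, and mt- points between 0.337 and 1.20 with complexes I and III under IV and V.

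Single mt- genes showed that the difference was uneven within a complex. mt-Nd2, a proton-pumping subunit of complex I, stood at 2257 and 1245 CPM in T cells, a ratio of 0.551, and at 1118 and 256 CPM in neutrophils. mt-Nd3, another complex I subunit, stood at 1058 and 1037 CPM in T cells, 878 and 1036 CPM in NK cells and 535 and 229 CPM in neutrophils. mt-Nd1, mt-Nd4, mt-Nd4l, mt-Nd5 and mt-Nd6 had ratios from 0.613 to 0.755 in T cells. mt-Co1, the catalytic subunit of complex IV, stood at 10772 and 8510 CPM in T cells and 11695 and 14275 CPM in monocytes/macrophages. mt-Co2 and mt-Co3 stood at ratios of 0.846 and 0.902 in T cells. In complex V, mt-Atp6 stood at 9876 and 8758 CPM and mt-Atp8, which overlaps it on the mitochondrial genome, at 175 and 93.6 CPM in T cells.

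The ratio of mitochondrial to nuclear subunit UMIs also set the classes apart. It was highest in B cells in both libraries, at 4.92 and 4.40, and stood at 3.02 and 2.55 in T cells. NK cells stood at 2.39 and 2.12, and cDC at 1.66 and 1.40, the lowest in both. Both dendritic classes differed in this: pDC combined a high nuclear level with 3.37 and 2.38, whereas cDC had the highest nuclear level and the lowest ratio.

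The cycling T cells numbered 835 in lenvatinib and 198 in combo. Their summed nuclear level was 19922 CPM against 16004 CPM in the remaining T cells of the lenvatinib library, a ratio of 1.245 (1.235 to 1.254), and 21112 against 15769 CPM in combo, a ratio of 1.34 (1.32 to 1.36). Among cells of 3000 to 10000 UMIs these ratios were 1.15 and 1.16. Median counts were 9523 and 10708.5 UMIs in cycling and 5353 and 5071 in noncycling T cells. Cycling T cells were higher within each library, and the 2 libraries gave about the same ratio once depth was limited. The 4 neutrophil genes summed to 683 CPM in cycling T cells of lenvatinib and 7639 CPM in those of combo, against 283 and 1683 CPM in noncycling T cells, and their part was not tested.

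Complex IV led the difference. Cycling over noncycling ratios were 1.26 for complex I, 1.13 for complex III, and 1.29 for complex IV in lenvatinib, and 1.32, 1.20 and 1.42 in combo. Complex V stood at 5220 and 6525 CPM in noncycling and cycling T cells of lenvatinib and at 5067 and 6891 CPM in combo. Of members with at least 100 UMIs, 41 of 73 in lenvatinib and 55 of 73 in combo were higher in cycling cells by the same measure and 0 were lower. Of all genes, 19.6% and 26.0% were higher, and 18.8% and 22.4% were lower. The median member ratio was 1.27 in lenvatinib and 1.38 in combo, against 0.982 and 1.01 for all genes. The members' shares, 56.2% and 75.3%, stood above those of all genes in both libraries.

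Cox5a stood at 280 CPM in noncycling and 431 CPM in cycling T cells of lenvatinib, and at 299 and 510 CPM in combo. Cox5b stood at 257 and 396 CPM in lenvatinib and 258 and 429 CPM in combo. Ndufb8, an accessory subunit of complex I, had ratios of 1.609 and 1.505. Of the members that passed, 3 were below 1 in both libraries. Cox7a2l was lower in cycling cells, at ratios of 0.819 and 0.821, as were Ndufa6, a complex I accessory subunit, at 0.888 and 0.888, and Uqcrh, the hinge protein of complex III, at 0.917 and 0.953, the last with a range in combo that reached 1.02. Ndufs7, a core subunit of complex I, was also below 1 in combo, at 0.988 (0.824 to 1.18). The 13 mt- genes were not higher: their sum stood at 0.924 times the noncycling level in lenvatinib and 0.911 times in combo.

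**Figure D5:**
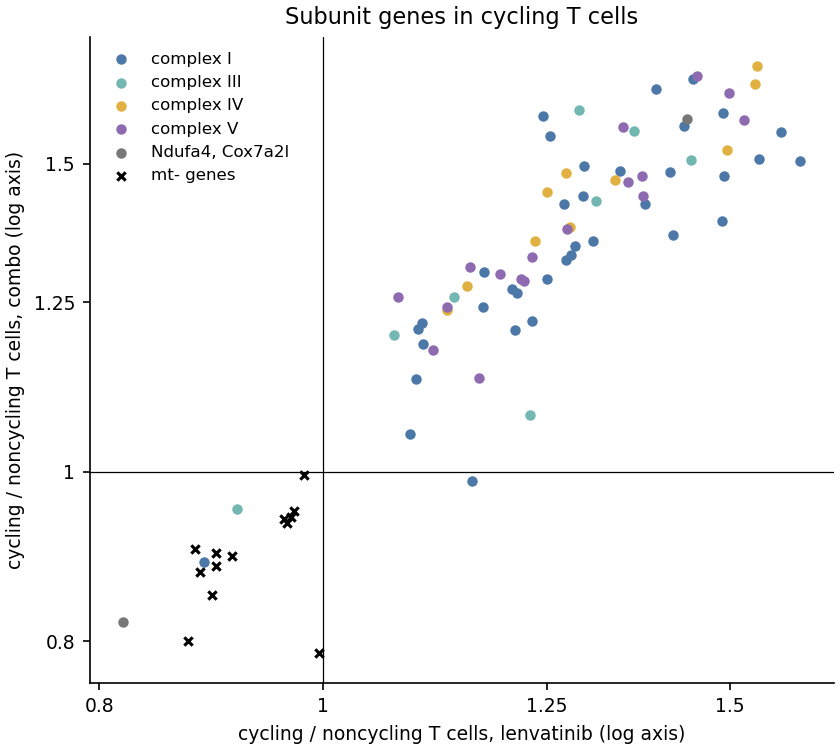
Ratio of cycling to noncycling T cells in the lenvatinib library (x axis, log scale) and the combo library (y axis, log scale), 1 point per nuclear subunit gene colored by complex and 1 cross per mt- gene. Most nuclear genes (70 of 73 and 69 of 73) lie above 1, beside 47.1% of all genes in lenvatinib and 50.8% in combo. The crosses lie below 1 on both axes.

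Further genes of the pathway are given by list. In T cells 0 of the 4 complex II genes (Sdha to Sdhd) and 0 of 37 assembly factor genes were higher in combo by the measure above, and 0 and 3 were lower, with median ratios of 0.946 and 0.965, beside 10.6% of all genes higher and 34.6% lower. In neutrophils 1 of 15 assembly factor genes was higher and 7 were lower, beside 8.44% and 61.3%, and in B cells 2 of 4 complex II genes were lower, beside 42.0%. Sdhb, the iron-sulfur subunit of complex II, stood at 66.9 and 75.1 CPM in T cells and 83.0 and 120 CPM in pDC. Cycs, which encodes the electron carrier cytochrome c, stood at 153 and 156 CPM in T cells, 194 and 251 CPM in NK cells and 94.9 and 59.5 CPM in neutrophils. Cyc1, the cytochrome of complex III, stood at 60.2 and 67.5 CPM in T cells and 86.3 and 120 CPM in cDC.

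Transcription factors and other regulators of the pathway were also listed. Of 14 regulator genes that passed in T cells, 0 were higher and 6 lower, with a median ratio of 0.851, beside 34.6% of all genes lower and an all-gene median of 0.889. Those lower were 7 of 15 in NK cells and 4 of 4 in cDC, beside 31.2% and 29.3%. They were 2 of 6 in B cells, 1 of 5 in monocytes/macrophages, 5 of 7 in neutrophils and 0 of 2 in pDC. All genes lower there were 42.0%, 26.9%, 61.3% and 27.1%. With so few genes in a class, nothing is read from the list. Nrf1, a transcription factor of many respiratory genes, stood at 53.1 and 37.2 CPM in T cells, 46.4 and 32.1 CPM in NK cells, 72.4 and 46.1 CPM in B cells and 35.7 and 18.5 CPM in neutrophils. Gabpa, the DNA-binding subunit of GABP, stood at 34.0 and 24.8 CPM in T cells. Tfam, which packages and transcribes mitochondrial DNA, stood at 42.2 and 41.4 CPM in T cells and 69.4 and 86.4 CPM in B cells. Ppargc1a, the coactivator PGC-1α, was at or under 6.85 CPM in every class. Hif1a, the hypoxia factor, stood at 146 and 180 CPM in T cells and 117 and 186 CPM in monocytes/macrophages. Myc stood at 85.0 and 66.9 CPM in T cells and 111 and 200 CPM in B cells.

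Among carriers, Slc25a4, an ADP/ATP carrier, stood at 132 and 185 CPM in cDC and 123 and 173 CPM in pDC, and Slc25a5, a second carrier of this kind, at 328 and 289 CPM in T cells. Ucp2, an uncoupling protein of immune cells, stood at 245 and 201 CPM in T cells and 332 and 202 CPM in B cells. Of the 14 tricarboxylic acid cycle genes, 0 were higher and 3 lower in T cells, beside 10.6% and 34.6% of all genes. In pDC 4 of 11 were higher and 1 lower, beside 18.1% and 27.1%, and in B cells 1 of 14 was higher and 6 were lower, beside 10.1% and 42.0%. Glycolysis genes, which break glucose down to pyruvate in the cytosol, were listed for comparison. In T cells 9 of 17 were higher and 1 lower, beside 10.6% and 34.6% of all genes. In monocytes/macrophages 13 of 15 were higher and 1 lower, beside 15.9% and 26.9%, and in pDC 9 of 12 were higher and 0 lower, beside 18.1% and 27.1%. In B cells 2 of 13 were higher and 1 lower, beside 10.1% and 42.0%. The summed glycolysis ratio was 1.34 in T cells, 1.29 in NK cells, 1.45 in neutrophils and 1.60 in pDC, beside nuclear subunit ratios of 0.956, 1.02, 0.912 and 1.11. In B cells, the glycolysis ratio was 1.10. Genes of the mitochondrial ribosome, which translates the mt- transcripts, stood at 1.01 in T cells, 0.846 in neutrophils and 1.17 in pDC.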

How the data were processed

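The deposited values are raw counts of UMIs, not normalized, for each gene in each droplet barcode, on the mm10 build. The submitters' notes name Cell Ranger 5.0.1 and the header of the matrices names 6.0.1. Cells with over 6000 genes or over 25% mt- UMIs were removed, the limits of the study's methods. Seurat normalization, clustering and SingleR were not repeated, and classes were gated on UMIs of lineage markers. A gate on detected markers favors deep cells. Counts were summed per class and library (python 3.11.15, pandas 2.3.3) and given as CPM, with intervals from scipy 1.17.1. Members and gene lists were chosen with earlier results of these data known. Named genes were paralogous forms, core subunits, the 2 highest and 2 lowest members per class among those with at least 100 UMIs, the mt- genes and pathway genes. Others were chosen after their values were seen, and 1 gene of the rule is not reported here. Scrublet (scanpy 1.11.5, expected rate 6%) called 4.46% of lenvatinib and 2.76% of combo cells doublets, which were kept. The steps were tested on simulated data. Coordinates and coding sequence come from GENCODE vM21, and promoters from RefSeq.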

Additional observations from a re-analysis of the deposited data

Results flagged for a closer look

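Ratios of combo to lenvatinib lay on opposite sides of 1 in different classes, and these differences between classes were not tested. The summed nuclear level had ratios of 0.956 in T cells, 0.947 in B cells and 0.912 in neutrophils, against 1.02 in NK cells, 1.08 in cDC and 1.11 in pDC. Under the alternatives run, T cells reached 1.01, B cells 1.04 and neutrophils 1.08, and cDC fell to 0.688. Of these classes only NK cells and pDC kept their side of 1. The median member ratio lay above the median of all genes in each class. Within T cells the nuclear ratio was 1.06 in cycling and 0.985 in noncycling cells, and cycling cells made up 15.7% of T cells in lenvatinib and 4.74% in combo. The summed level of the mt- genes had ratios of 0.810 in T cells, 0.902 in NK cells, 0.847 in B cells, 0.539 in neutrophils, 0.906 in cDC and 0.781 in pDC, against 1.07 in monocytes/macrophages. Under the alternatives run, the mt- ratio ranged across 1 in cDC (0.890 to 2.02) and monocytes/macrophages (0.864 to 1.52).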

How the results depend on the processing

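No paired analysis was possible because there is 1 library per condition and the labels carry no replicate numbers. Alternatives were the cell filter, the gate, depth, the CPM total, the weighting of cells, doublets, the fold and the count minimum. The totals without the 4 neutrophil genes, the lenvatinib makeup of classes and of cycling T cells and the depth limit on the comparisons of cycling with noncycling T cells and of neutrophils with T cells were chosen after seeing the data. Removal of called doublets moved no ratio past counting error and 3 counts of members by 1 or 2, to 9 lower in B cells, 9 higher in monocytes/macrophages and 20 higher in pDC. The causes of the shifts were not tested. Counting error does not cover differences between mice, libraries or batches, and classes of few cells rest on few UMIs per gene.

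Nuclear ratios moved as follows. At 3000 to 10000 UMIs they were 1.04 in B cells, 1.01 in NK cells, 0.971 in T cells, 0.900 over all cells, 0.688 in cDC, 0.751 in monocytes/macrophages and 0.860 in neutrophils. With all barcodes they were 0.919 in B cells and 0.972 in monocytes/macrophages. With at least 3 markers they were 1.05 in cDC, 1.05 in monocytes/macrophages, 0.9499 in neutrophils and 1.07 in pDC. With at most 10% mt- UMIs they were 1.09 in monocytes/macrophages and 1.07 in pDC. As means over cells they were 1.03 in B cells, 0.975 in T cells, 0.909 over all cells, 1.12 in cDC, 0.795 in monocytes/macrophages, 0.9502 in neutrophils and 1.15 in pDC. Without mt-, ribosomal and hemoglobin genes in the total they were 1.01 in B cells, 1.05 in NK cells, 1.01 in T cells, 0.888 over all cells, 1.11 in cDC, 1.06 in monocytes/macrophages and 1.14 in pDC. Without the 4 neutrophil genes they were 0.968 over all cells and 1.08 in neutrophils. With the lenvatinib makeup of classes, all cells stood at 0.984, and with that of cycling and noncycling cells, T cells stood at 1.01 and their mt- ratio at 0.798.

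The mt- ratios at 3000 to 10000 UMIs were 0.827 in B cells, 0.890 in NK cells, 0.786 in T cells, 2.02 in cDC, 1.52 in monocytes/macrophages, 0.530 in neutrophils and 0.852 in pDC. With all barcodes they were 0.828 in B cells, 0.803 in T cells, 0.890 in cDC, 1.09 in monocytes/macrophages, 0.486 in neutrophils and 0.731 in pDC. With at most 10% mt- UMIs they were 0.888 in B cells, 0.917 in NK cells, 0.822 in T cells, 0.864 in monocytes/macrophages, 0.581 in neutrophils and 0.853 in pDC. At 3000 to 10000 UMIs, the mt- complex I ratio was 1.08 in monocytes/macrophages and 1.71 in cDC, and the nuclear ratios were 0.785 for complex I in monocytes/macrophages and 0.677, 0.648 and 0.688 for complexes I, IV and V in cDC.

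Counts of members past the fold (higher, lower) that moved by over 1.5 times were these, with others where named. Without mt-, ribosomal and hemoglobin genes in the total they were 6 and 5 in B cells, 4 and 1 in NK cells and 3 and 2 in T cells, with 2 lower in monocytes/macrophages, beside 8.0% to 21.4% of all genes higher and 22.8% to 62.9% lower over the 7 classes. With at most 10% mt- UMIs, 1 was lower in cDC and 1 in monocytes/macrophages, beside 28.5% and 28.9% of all genes, with smaller moves to 15 higher in monocytes/macrophages, 15 lower in B cells and 14 higher in pDC, beside 17.6%, 42.7% and 16.4%. At 1.5-fold they were 0 and 2 in B cells, 0 and 0 in NK cells, T cells and monocytes/macrophages, and 1 and 6 in neutrophils, with 0 higher in cDC and 4 higher in pDC, beside 2.98% to 6.24% of all genes higher and 10.6% to 41.5% lower by class. With at least 400 UMIs they were 0 and 7 of 47 in B cells, with 1 of 73 lower in NK cells, 0 of 73 higher in T cells, 2 of 68 lower in monocytes/macrophages and 9 of 52 higher in pDC, beside 7.45% to 19.4% of all genes higher and 17.3% to 56.1% lower. Without the neutrophil genes they were 13 and 7 in neutrophils, beside 15.5% and 43.6%.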
